A study of Rattus norvegicus with 19 samples.

Results

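Rpp25 encodes a protein subunit of RNase P and RNase MRP, and 37 of the 27538 transcribed intergenic elements with a deposited gene pair were paired with it. Members were all rows of the deposited table that name Rpp25, that is, every element whose centre lay within 1 Mb of the gene's start. These elements (TAPEs, for transcriptionally active putative enhancers) are intergenic ATAC-seq peaks that give rise to RNA from either strand. One of them, about 8 kb before the gene, was singled out. It was chosen by its CPKM (defined below) in striatal cultures, its fall after KCl and its correlation with Rpp25, so these features and the pattern of Rpp25 itself are described without a test.

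RNA-seq was done on 19 libraries of primary neurons from Sprague-Dawley rat cortex, hippocampus or striatum, dissected at embryonic day 18 and cultured for 11 days. Cultures received vehicle (Neurobasal medium) or KCl, which depolarizes neurons, for 1 h. The labels of the samples give 25 mM KCl, whereas the text of the series gives 10 mM. By the titles of the samples there were 3 libraries in each group except striatum vehicle, which had 4. The supplementary methods of the authors instead list 3 vehicle and 4 KCl libraries for striatum. No genetic change is named in the labels.

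RNase P removes the 5′ leader of precursor tRNAs, and RNase MRP processes precursor ribosomal RNA. The enzymes share most of their proteins, among them Rpp25, which binds their catalytic RNA together with Rpp20 (the Pop7 product). Active enhancers are transcribed from both strands into short-lived enhancer RNA, and many enhancers are active in some neuron types and silent in others.

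The Rpp25 locus lies on chromosome 8. In Rn6 the gene is at chr8:62283336-62284716 on the plus strand. Scamp5, which encodes a synaptic vesicle membrane protein, starts at position 62248017 on the minus strand, so both genes point away from a gap of 35319 bp. That gap holds 2 TAPEs. The striatal TAPE, chr8:62274612-62275990, is 1379 bp long, is centred 8035 bp before the Rpp25 start and ends 7346 bp before it. The upstream neighbour, chr8:62262656-62264523, is 1868 bp long and is centred 19746 bp before the start, with 10088 bp between the 2 elements. Another TAPE, the downstream neighbour at chr8:62290621-62291821, is as close to the start (7885 bp) but lies 5905 bp past the end of the gene.

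The start regions of the genes that flank these elements are shown for reference. They are RefSeq sequences of assembly GRCr8, which differs from the build of the measurements, from 250 bases before to 50 bases after each start, on the gene's own strand. Capitals mark the GC box, GGGCGG on either strand. Rpp25 is at chr8:66803012-66803311 (plus strand), Scamp5 at chr8:66767892-66768191 (minus strand) and Cox5a, the next gene on the other side, at chr8:66818034-66818333 (plus strand).
Rpp25: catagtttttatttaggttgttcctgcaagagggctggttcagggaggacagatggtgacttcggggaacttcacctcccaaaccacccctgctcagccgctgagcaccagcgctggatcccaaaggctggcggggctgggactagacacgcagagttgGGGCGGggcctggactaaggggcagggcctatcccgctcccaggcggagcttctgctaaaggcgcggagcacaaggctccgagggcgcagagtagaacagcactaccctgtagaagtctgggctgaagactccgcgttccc
Scamp5: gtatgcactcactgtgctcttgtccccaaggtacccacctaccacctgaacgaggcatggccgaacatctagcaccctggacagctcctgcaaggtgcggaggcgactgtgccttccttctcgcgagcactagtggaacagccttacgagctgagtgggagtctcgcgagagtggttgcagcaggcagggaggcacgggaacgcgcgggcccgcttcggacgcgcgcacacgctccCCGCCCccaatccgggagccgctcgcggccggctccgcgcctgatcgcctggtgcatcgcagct
Cox5a: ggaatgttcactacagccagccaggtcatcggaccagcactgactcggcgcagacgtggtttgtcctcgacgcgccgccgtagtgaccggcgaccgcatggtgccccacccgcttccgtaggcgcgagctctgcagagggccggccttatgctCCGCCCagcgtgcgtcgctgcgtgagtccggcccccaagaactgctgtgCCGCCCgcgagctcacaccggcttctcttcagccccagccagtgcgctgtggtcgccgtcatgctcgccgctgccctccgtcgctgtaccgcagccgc
The Rpp25 window holds 1 GC box, as does that of Scamp5, and the Cox5a window holds 2. A GC box is found in 33.1% of 33469 rat windows of this length. The Rpp25 window is 61.0% G and C, against a median of 51.7%. It also holds 1 E box (CANNTG, in 72.1% of windows), which is not marked. On either strand it holds no TATA box (TATAAA, in 14.2% of windows), cyclic AMP response element (TGACGTCA, 1.83%), AP-1 site (TGANTCA, 7.33%), homeodomain core (TAATTA, 5.36%) or MEF2 site (1.87%).

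The TAPEs of Rpp25 held few reads, apart from the pair in the gap. Values are reads per kilobase of TAPE and per 1000000 reads, both strands together (CPKM). The 37 TAPEs held 2776 reads over the 19 libraries, and the striatal TAPE alone held 748 of them (26.9%). Together with its upstream neighbour it held 42.5%. The median TAPE of Rpp25 had 21 reads, 17 had fewer than 20, and 31 had fewer than 100. Library totals ran from 46411271 to 72521194 reads, and 75.4% of nonzero TAPE values under 10 reads were even. Whether mates of a pair were counted separately was not tested. Only 4 of the 37 had the mean of 0.05 CPKM required for a test, as did 1870 of all TAPEs. At the edges of the window, the last member on the far side, at 999 kb, averaged 0.0364 CPKM, and the first TAPE beyond, at 1022 kb, averaged 0.330 CPKM. On the other side the last member, at 814 kb, averaged 0.00409 CPKM and the first TAPE beyond, at 1077 kb, 0.00909.

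In striatal vehicle cultures the striatal TAPE measured 1.44, 1.37, 1.34 and 1.58 CPKM. After KCl, striatal cultures gave 0.863, 0.989 and 0.681 CPKM. All of the KCl values lay below all of the vehicle values, as at 9.73% of tested TAPEs, and the means were 1.43 ± 0.106 (SD, n = 4) and 0.844 ± 0.155 (n = 3), a fall of 41.1%.

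Cortex vehicle cultures gave 0.163, 0.160 and 0.140 CPKM, and cortex KCl cultures 0.0781, 0.0854 and 0.106. Hippocampus vehicle cultures gave 0.0898, 0.137 and 0.210 CPKM, and hippocampus KCl cultures 0.0761, 0.0639 and 0.145. The lowest striatal library was above the highest library of either other region, and cortex and hippocampus overlapped. Each cortex or hippocampus value rests on 5 to 16 reads, against 49 to 126 in striatum.

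**Figure D1:**
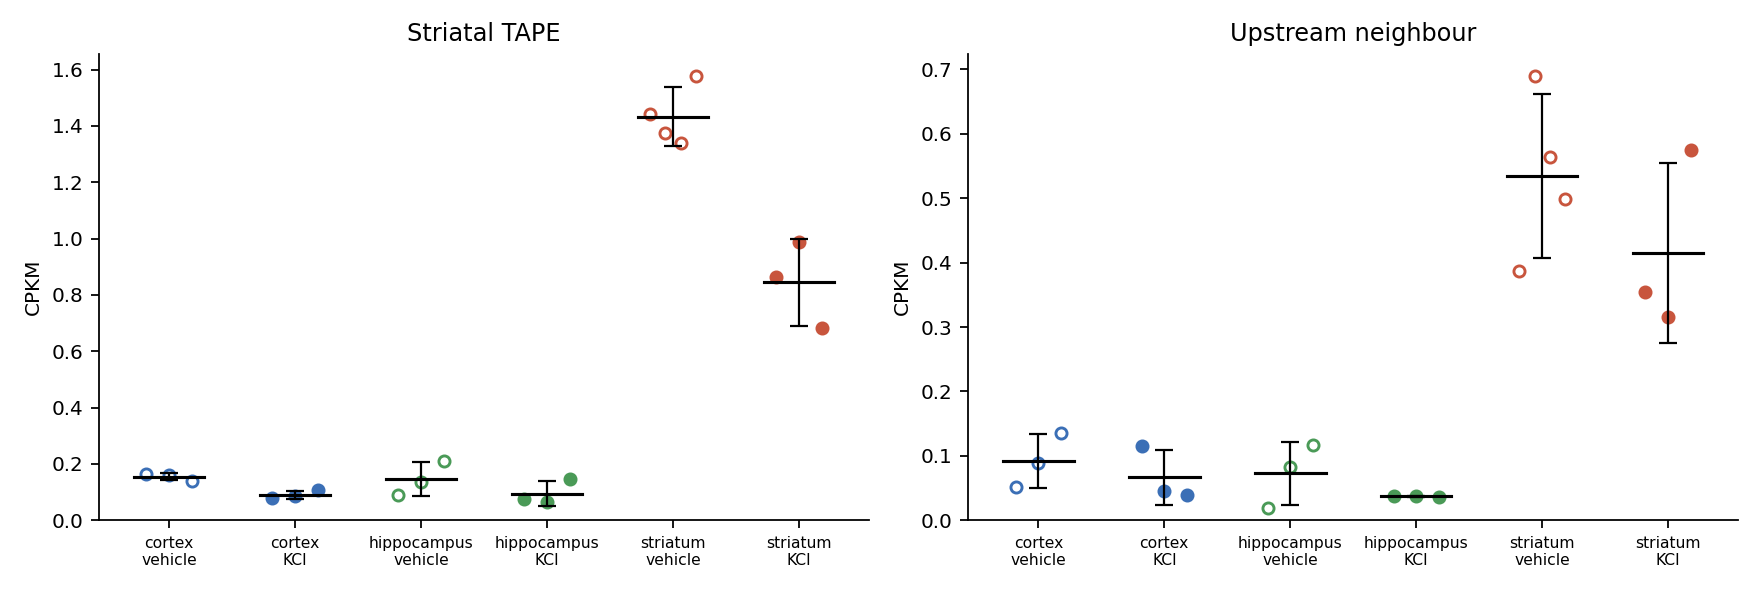
CPKM of the striatal TAPE (left) and its upstream neighbour (right) in each library, with the y axis from 0. Open points are vehicle and filled points KCl, and bars are the mean and SD of 3 libraries (4 in striatum vehicle). The striatal TAPE spans 0.681 to 1.58 CPKM in striatum and 0.0639 to 0.210 elsewhere.

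The striatal TAPE was thus 9.67 times higher in striatum than in cortex and 9.81 times higher than in hippocampus by mean CPKM. The ratio to cortex was 9.29 with vehicle and 9.40 with KCl, and that to hippocampus 9.83 and 8.89. On the log2(CPKM + 0.05) scale the differences were 2.82 (SE 0.21) and 2.86 (SE 0.21), and without cortex vehicle replicate 3, whose title says cortex and whose tissue label says striatum, the difference to cortex was 2.85. By mean striatal CPKM it ranked 2 of 27538 TAPEs, and by the smaller of its 2 log2 differences it ranked 2 of 1870.

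The proportional fall after KCl was of a like size where the element was low. Mean CPKM was 41.8% lower in cortex KCl than in cortex vehicle cultures, and 34.8% lower in hippocampus. In cortex the treatments did not overlap, which held for 10.5% of tested TAPEs, and in hippocampus they did. Neither difference passed: the log2 change was -0.55 in cortex (SE 0.29, limma adjusted p = 0.51) and -0.43 in hippocampus (SE 0.33, limma adjusted p = 0.60). In striatum it was -0.74 (SE 0.15), given as a description. The median change over the 1870 TAPEs was -0.17 in striatum, -0.09 in cortex and -0.16 in hippocampus, and the 3 changes of this TAPE were -0.60, -0.48 and -0.26 after each library was centred on its median. In the fits without 1 library each, the striatal change ran from -0.86 to -0.60.

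The upstream neighbour had the same regional order at a lower level. Its striatal values were 0.386, 0.690, 0.563 and 0.499 CPKM with vehicle and 0.354, 0.316 and 0.575 with KCl, which overlap. In cortex it measured 0.0515, 0.0886 and 0.135 CPKM with vehicle and 0.115, 0.0450 and 0.0391 with KCl. In hippocampus it measured 0.0189, 0.0830 and 0.116 CPKM with vehicle and 0.0375, 0.0378 and 0.0357 with KCl. Its cortex and hippocampus values rest on 2 to 17 reads each. Every striatal library was again above every other library, as at 4.87% of tested TAPEs and 0.635% of all TAPEs.

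The upstream neighbour was higher in striatum than in cortex by 2.06 on the log2 scale (SE 0.24, limma adjusted p = 3.38e-08), and higher than in hippocampus by 2.37 (SE 0.24, limma adjusted p = 1.24e-09). Without cortex vehicle replicate 3 the first difference was 2.18. Among the other 3 tested TAPEs of Rpp25 it was the only 1 past the F-test over regions (limma adjusted p = 6.72e-10), a test passed by 48.8% of the 1870. The comparison with cortex was passed by 33.3% and that with hippocampus by 43.0%. Its KCl changes were -0.35 in striatum (SE 0.23, limma adjusted p = 0.50), -0.30 in cortex (SE 0.36, limma adjusted p = 0.81) and -0.40 in hippocampus (SE 0.36, limma adjusted p = 0.66).

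The striatal TAPE was 2.68 times the level of its upstream neighbour in striatum vehicle cultures and 2.04 times in striatum KCl cultures. Over the 19 libraries the 2 correlated at r = 0.898, and at 0.236 after region means were removed. Within regions r was 0.826 for hippocampus (n = 6), 0.222 for striatum (n = 7) and 0.072 for cortex (n = 6). All these values share the library totals used to scale them.

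No KCl test passed at the 4 tested TAPEs in cortex or hippocampus, where 0.321% and 0.0535% of tested TAPEs passed in limma. None had an unadjusted p under 0.05 in either, and limma voom on recovered reads also called 0, with 0 and 1 unadjusted. In striatum 1.23% of TAPEs passed (0.428% as lower). Besides the striatal TAPE, 0 of 3 did in limma or voom, with 0 at an unadjusted p under 0.05 in both.

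The other 2 tested TAPEs lay far upstream and were not higher in striatum. At chr8:61510498-61512502, 772 kb before the start, CPKM ran from 0.0519 to 0.220 in cortex (median 0.137), from 0 to 0.168 in hippocampus (median 0.0834) and from 0.0382 to 0.120 in striatum (median 0.0552). The striatum minus cortex difference was -0.73 (SE 0.29, limma adjusted p = 0.054), which crossed the threshold without cortex vehicle replicate 3 (-0.90, limma adjusted p = 0.0198). Over all alternatives its adjusted p ran from 0.0198 to 0.194, and it passed with a pseudocount of 0.2, with libraries centred and with treatment as a covariate, as well as without some other libraries. Its KCl change was -0.25 in striatum (SE 0.31, limma adjusted p = 0.76).

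At chr8:61748144-61751013, 534 kb before the start, the regions overlapped, with 0.107 ± 0.0285 CPKM in cortex (SD, n = 6), 0.0703 ± 0.0342 in hippocampus (n = 6) and 0.0762 ± 0.0450 in striatum (n = 7). The striatum minus cortex difference was -0.37 (SE 0.24, limma adjusted p = 0.25). The KCl change in striatum was 0.22 (SE 0.38, limma adjusted p = 0.82).

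The downstream neighbour, though as near to the Rpp25 start as the striatal TAPE, had only 20 reads in all. Of these 7 were in striatum vehicle replicate 8, 0 were counted in the 3 cortex KCl libraries and 0 in the 3 hippocampus vehicle libraries, where a count of 0 allows up to 3 reads a group. Such limits cover counting error only, since reads are not independent molecules. The next TAPEs on that side, chr8:62432758-62435568 and chr8:62654457-62655623, had 6 and 4 reads, none of them in striatum. On the far side of Scamp5, chr8:62182817-62184444 had 21 reads.

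A further TAPE 132 kb before the start, chr8:62150329-62152107, fell just short of the filter with 0.0476 CPKM on average and 90 reads. Striatum vehicle libraries gave 0.109, 0.147, 0.116 and 0.136 CPKM (11 to 14 reads each), and striatum KCl libraries 0.0212, 0.0622 and 0 (2, 6 and 0 reads). The treatments did not overlap, as at 9.73% of tested TAPEs. The fit without a filter passed 0.00726% of 27538 TAPEs for KCl in striatum. There the log2 change of this TAPE was -1.26 (SE 0.27) and did not pass (limma adjusted p = 0.67). Of the 37 TAPEs of Rpp25, 24 were lower and 13 higher after KCl in that fit, and 0 passed. Among the higher, named after their values were seen, were chr8:62121214-62123865 (1.22, SE 0.17, limma adjusted p = 0.38, 61 reads) and chr8:61872990-61874542 (0.86, SE 0.25, limma adjusted p = 0.82, 23 reads).

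Apart from the pair in the gap, the remaining 35 TAPEs had mean levels of 0.00189 to 0.0925 CPKM. Their summed reads per 1000000 reads ran from 0.804 to 1.44 in cortex, from 0.783 to 1.66 in hippocampus and from 1.69 to 2.10 in striatum, where vehicle (median 2.05) and KCl (median 1.94) were close. Of all 37, the striatal TAPE included, 25 had their highest mean in striatum (67.6%), 7 in hippocampus and 5 in cortex, whereas 33.7% of all TAPEs were highest in striatum. Without a filter, 3 of the 36 besides the striatal TAPE passed the F-test over regions (7.36% of all TAPEs did), namely the upstream neighbour and 2 that were named after their values were seen, chr8:62901764-62905652 (limma adjusted p = 0.0035) and chr8:63228031-63232998 (limma adjusted p = 0.041). Against cortex 4 of these 36 passed (3.98% of all TAPEs) and against hippocampus 2 (6.41%). The last 2 named had their highest mean in striatum too, at 0.0732 and 0.0630 CPKM.

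**Figure D2:**
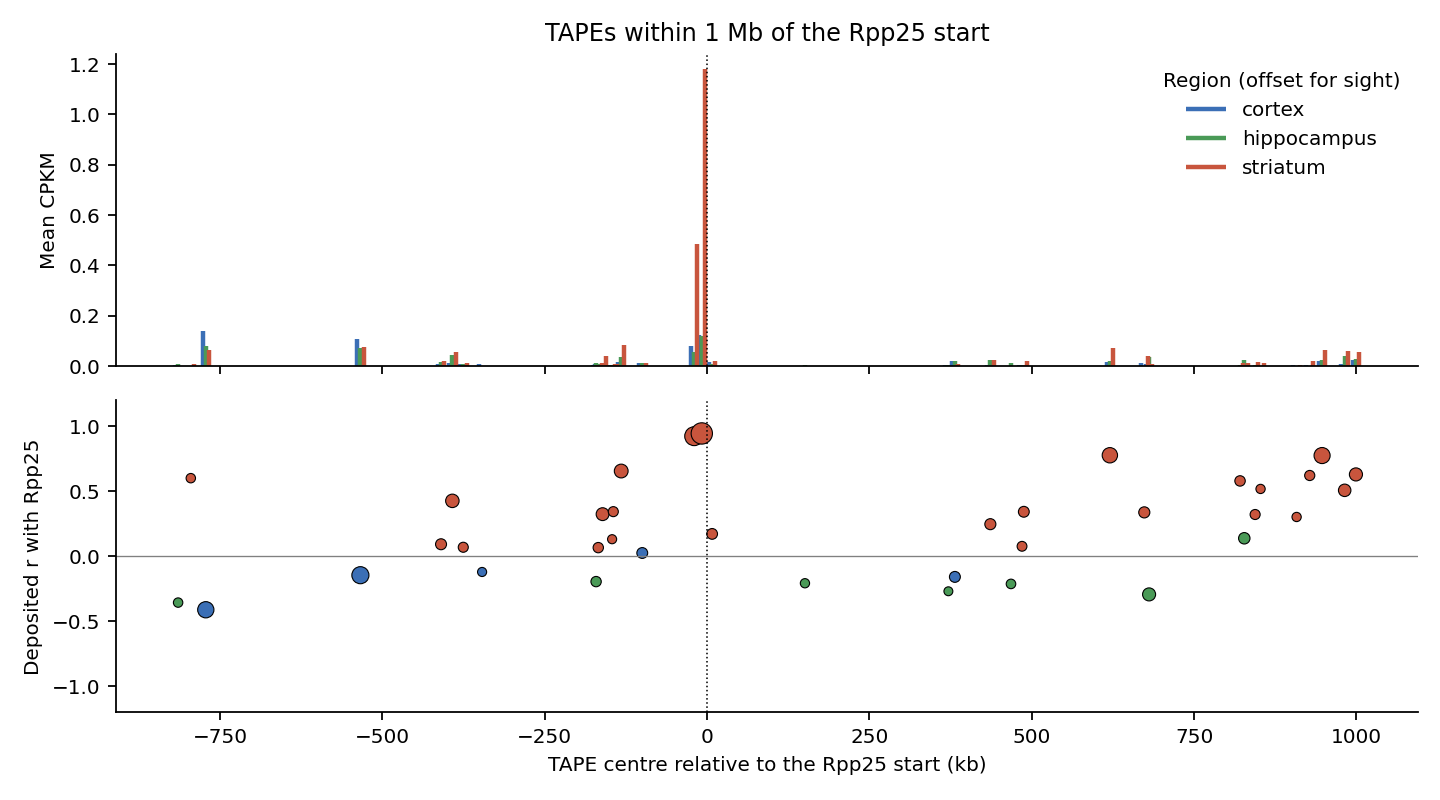
Mean CPKM of the 37 TAPEs in each region (top, lines from 0, offset sideways) and the deposited r of each with Rpp25 over 19 libraries (bottom), by distance from the Rpp25 start in kb. Point size grows with total reads and point colour gives the region of the highest mean; the pair just before the start stands above all others in striatum.

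Rpp25 itself was high in all 7 striatal libraries. The table gives no gene values by library, so levels were solved from its correlations and are standardised, in SD over the 19 libraries around a mean of 0. They give order and direction and no fold. Striatum vehicle libraries gave 1.38, 1.10, 1.65 and 1.49, and striatum KCl libraries 1.31, 0.66 and 1.13.

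Cortex libraries ran from -0.89 to -0.69 (median -0.83, n = 6) and hippocampus libraries from -0.82 to -0.51 (median -0.66, n = 6). Regions other than striatum overlapped, as did vehicle and KCl in each region. In striatum the mean standardised level was 1.41 ± 0.23 with vehicle (SD, n = 4) and 1.03 ± 0.33 with KCl (n = 3). Every KCl library was below every vehicle library in striatum for 18.7% of genes, and Rpp25 was not among them.

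In bulk RNA, fewer cells of a type and less RNA per cell cannot be told apart, and the cultures differed in neuron type. All 10 GABAergic and interneuron markers with a level were higher in striatum, as were 14 of 15 markers of striatal projection neurons, and 6 of 7 pallial glutamatergic markers were lower (exact permutation, adjusted p). Of all genes 28.3% passed as higher in striatum and 26.9% as lower. The mean standardised level of the GABAergic list ran from 0.95 to 1.53 in striatal libraries and from -0.85 to -0.51 in the others. That of the projection neuron list ran from 1.02 to 1.34 and from -0.90 to -0.46. In the GABAergic list r with Rpp25 ran from 0.434 (Npy) to 0.971 (Gad2). In the projection neuron list it ran from -0.026 (Tac1) to 0.988 (Ebf1), with 0.982 for Adora2a, the adenosine receptor of indirect-pathway neurons. An astrocyte marker, Gjb6, had 0.981. The part of cell composition in the regional difference was not tested.

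Of the markers with a level, 3 of 3 hippocampal, 4 of 6 astrocyte, 4 of 6 oligodendrocyte lineage and 2 of 2 endothelial markers were lower in striatum (26.9% of all genes), and 1 astrocyte marker, Gjb6, was higher. Of microglial markers, 0 of 3 passed in either direction. All 8 activity genes, among them Fos, Arc and Npas4, rose after KCl, where 6.07% of genes did.

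**Figure D3:**
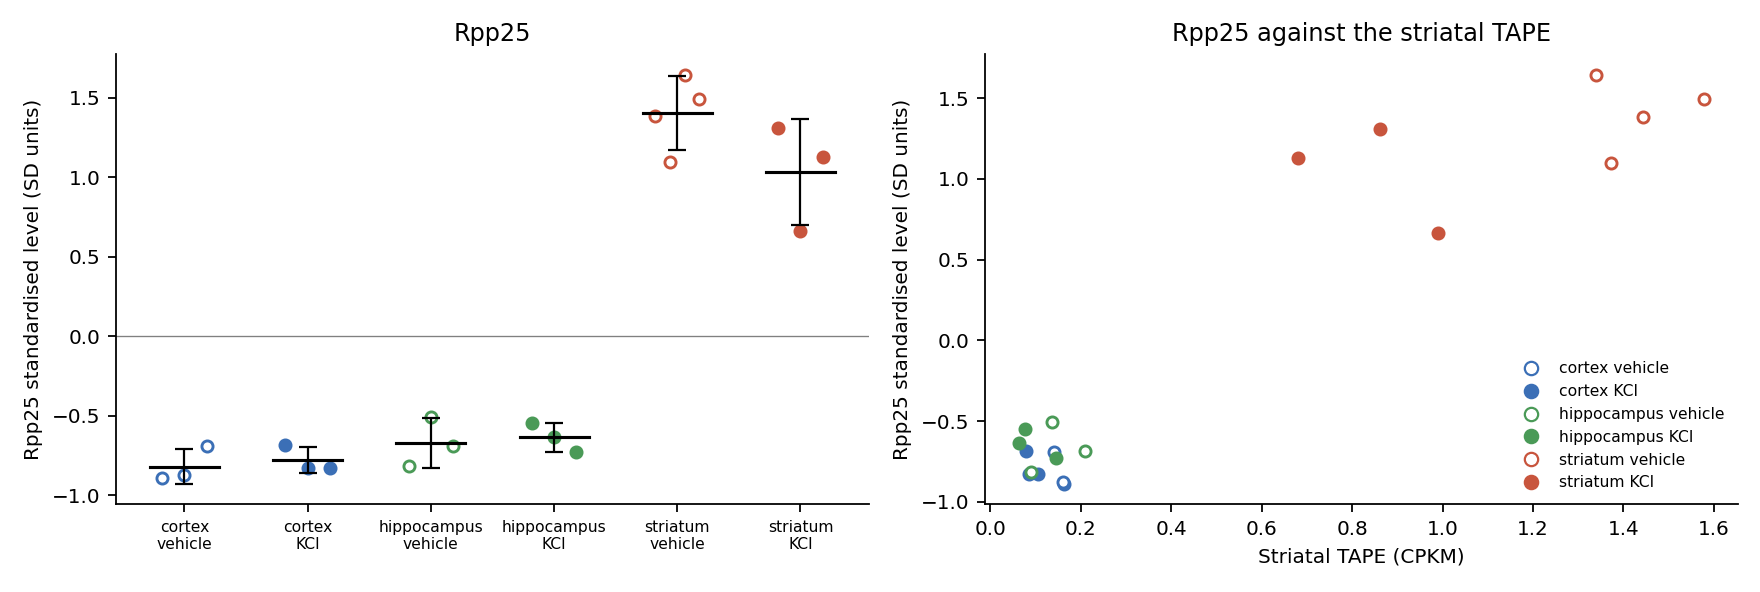
Standardised level of Rpp25 in each library (left, with mean and SD by group) and the same level against CPKM of the striatal TAPE (right), open points vehicle and filled points KCl. Striatal libraries stand apart on both axes, from 0.66 to 1.65 in level, and within a region the points show no shared line.

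The deposited global r of the striatal TAPE with Rpp25 was 0.946 (n = 19), and that of the upstream neighbour 0.925. In both, all 7 striatal libraries lie far from the other 12. The rank correlation of the striatal TAPE with Rpp25 was 0.605, and r after region means were removed was 0.434. Within striatum r was 0.495 (n = 7), within cortex it was -0.488 (n = 6) and within hippocampus -0.104 (n = 6). Each of these mixes vehicle and KCl libraries. When each library was left out in turn, r ran from 0.938 to 0.965 over all libraries, from 0.395 to 0.587 in striatum, from -0.799 to -0.199 in cortex and from -0.423 to 0.090 in hippocampus. For the upstream neighbour the values within regions were 0.270 in striatum, 0.780 in cortex and 0.333 in hippocampus.

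Of the 37 TAPEs, 11 had a global r above 0.5 with Rpp25 (29.7%, against 5.3% of all pairs in the series), and 0 had one under -0.5. Rpp25 was chosen with its striatal pattern known and the striatal TAPE by its r, so these shares are no test of an excess. The 9 besides the pair in the gap lay 132 kb or more from the start and held 6 to 199 reads. Among these 9 the highest r was 0.778, at chr8:62901764-62905652, and among all 35 the median was 0.173. Rpp25 was the best-correlated gene of 3 of the 37, the striatal TAPE and 2 remote ones, and the upstream neighbour had a higher r with Clk3 (0.941, 279 kb away).

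The striatal TAPE was paired with 41 genes, and Rpp25 had both the highest global r and the shortest distance. The next highest were Ulk3 (0.937, 93.7 kb), an autophagy-related kinase, Clk3 (0.913, 267 kb), a kinase of splicing factors, Cox5a (0.907, 23.1 kb), a subunit of cytochrome c oxidase, and Man2c1 (0.880, 470 kb), a cytosolic mannosidase. The lowest were Lingo1 (-0.927), a neuronal Nogo receptor partner, Snx33 (-0.860), a sorting nexin, and Sema7a (-0.860), a membrane-anchored semaphorin. In all, 16 of the 41 had r above 0.5 and 10 under -0.5.

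Cox5a was also the next nearest gene. After it came Scamp5 (27.3 kb, r = -0.121), Fam219b (42.0 kb, 0.392), Mpi (56.8 kb, 0.802), which encodes phosphomannose isomerase, and NEWGENE_1306267 (60.0 kb, 0.044). Scamp5 shares the gap with the TAPE and did not differ between striatum and the other regions by the test (difference -0.22 SD units, exact permutation adjusted p = 0.76).

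The share of these genes that differed by region was near that of all genes. Of the other 40, 14 were higher and 10 lower in striatum than in the other regions (60%; exact permutation within treatment, Benjamini-Hochberg adjusted), where 55.1% of 16502 genes passed. The differences in standardised level were 1.95 for Ulk3, 1.94 for Cox5a, 1.94 for Clk3 and 1.52 for Man2c1, and -2.01 for Lingo1, -1.91 for Sema7a and -1.83 for Snx33. A gene with a high or low r with the striatal TAPE is high or low in striatum by the choice of that TAPE, so these calls and r are not independent. In vehicle libraries alone 10 of the 24 calls were lost (Ccdc33, Csk, Cyp1a1, Edc3, Loxl1, Odf3l1, Sin3a, Stra6, Tbc1d21 and Ubl7), and 3 of them (Ccdc33, Edc3 and Sin3a) also when 1 library was left out. For KCl 6 of the 40 passed, all lower (15%, where 21.1% of genes passed and 15% as lower), among them Man2c1 (-0.84, exact permutation adjusted p = 0.010) and Mpi (-0.87, adjusted p = 0.014). The calls of Mpi and LOC102553472 were lost with ranks (exact permutation adjusted p = 0.056 and 0.052), and those of LOC102553472 and Pml when 1 library was left out (up to 0.068 and 0.065).

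Within striatum the order of the 41 genes was another. Arid3b, a DNA-binding protein 342 kb away, had the highest r there (0.981, n = 7), followed by Man2c1 (0.884), Sin3a (0.879), Ptpn9 (0.862) and Snupn (0.837), and Rpp25 ranked 15 with 0.495. After region means were removed the highest were Sin3a, a corepressor scaffold (0.740), Man2c1 (0.646) and Imp3 (0.639). None of the 41 had r above 0.5 in each of the 3 regions. These r mix vehicle and KCl libraries, also after region means were removed. The TAPE was chosen by its fall after KCl in striatum, so genes lower after KCl there rank high by that choice.

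**Figure D4:**
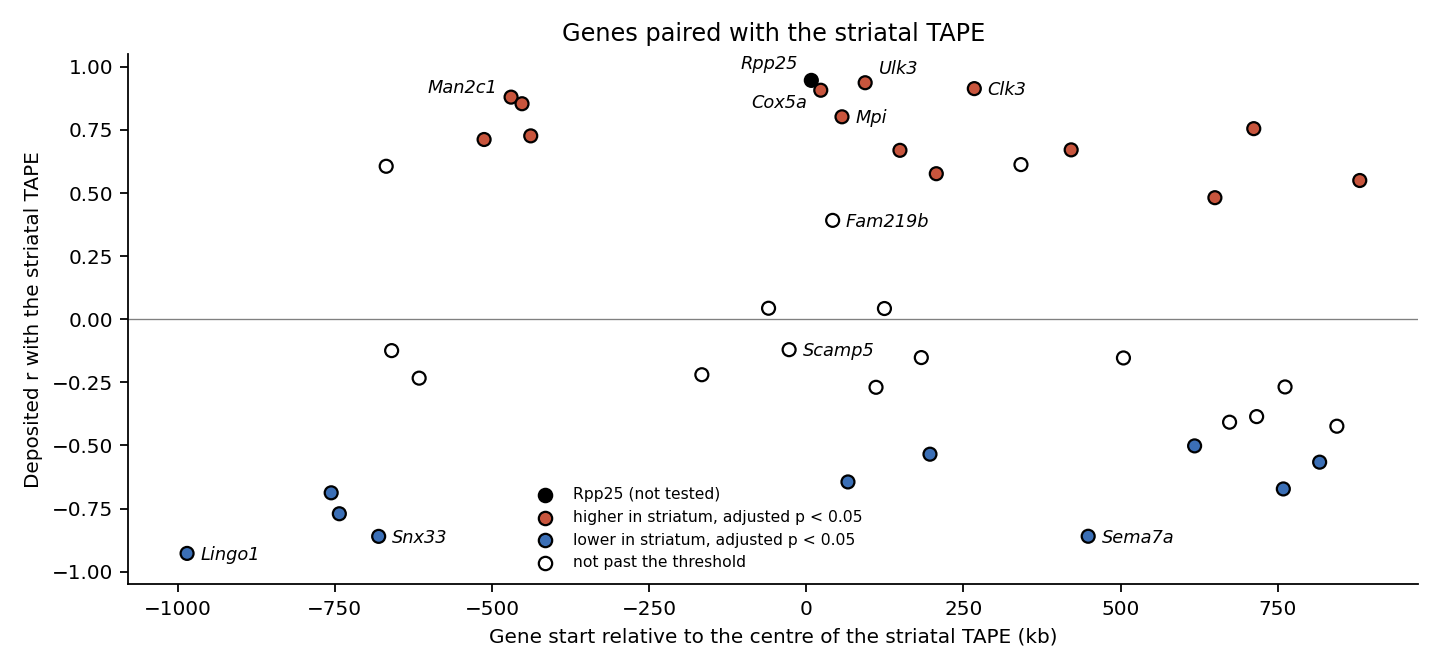
Deposited r with the striatal TAPE for its 41 paired genes, by distance of the gene start in kb. Red and blue points passed as higher or lower in striatum (adjusted p under 0.05), open points did not pass, and the black point is Rpp25; red points reach as far as 881 kb.

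Genes with levels most like those of Rpp25 lay on other chromosomes. Over 19 libraries the 8 most similar of 16501 genes were Vax1 (r = 0.988), Ebf1 (0.988), Esr2 (0.987), Rarb (0.985), Patj (0.985), LOC690507 (0.984), Tgfa (0.984) and Fgf10 (0.984). Vax1 and Ebf1 encode transcription factors of the ventral forebrain and striatum, Rarb and Esr2 nuclear receptors, and Tgfa and Fgf10 growth factors. In all, 1065 genes had r above 0.9 with Rpp25. The most similar within 1 Mb were Ulk3 (0.949), Clk3 (0.947) and Cox5a (0.942), at ranks 370, 407 and 476.

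The 5 TAPEs most like the striatal TAPE (log2 scale, 19 libraries) also lay elsewhere. A set of 3 on chromosome 16, chr16:82477815-82479820 (r = 0.951), chr16:82545047-82547309 (0.950) and chr16:82547803-82549490 (0.950), had Ankrd10 as their best-correlated gene. The others were chr3:105741173-105743226 (0.948), with Aqr as its best gene, and chr4:4943207-4944903 (0.947), with Dpp6. The upstream neighbour ranked 15 of 1869 with 0.936.

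Some protein partners of Rpp25 passed as higher in striatum and some as lower, as did many other genes. Of the 10 other listed subunits of RNase P and RNase MRP, 3 were higher and 4 lower in striatum, and 3 did not pass (exact permutation, adjusted p), where 28.3% of genes were higher and 26.9% lower. The median difference was -0.68 SD units, against -0.10 over all genes. The list was chosen with results of these data known.

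Rpp30 (1.80 SD units, exact permutation adjusted p = 0.00024), a subunit of the enzyme core, and Pop4 (1.87, adjusted p = 0.00024), which contacts the catalytic RNA, were higher in every striatal library than in every other, as were 13.2% of genes. Rpp25l, the paralog of Rpp25, was higher by 0.84 (adjusted p = 0.022), with overlap between regions. Pop5 (-1.99, adjusted p = 0.00024) and Rpp38 (-1.52, adjusted p = 0.000433), another RNA-binding subunit, were lower in striatum, as were 26.9% of genes. Rpp14 (-1.09, adjusted p = 0.046) and Rpp40 (-1.10, adjusted p = 0.041) were lower too, with both highest in hippocampus.

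Pop7, whose product pairs with Rpp25, did not pass (-0.50, adjusted p = 0.39), and neither did Pop1 (1.00, adjusted p = 0.052) nor Rpp21 (-0.87, adjusted p = 0.11). With Rpp25 over the 19 libraries r was 0.929 for Rpp30, 0.882 for Pop4, -0.253 for Pop7 and -0.949 for Pop5. The striatal calls of Rpp14, Rpp40 and Rpp25l were lost in vehicle libraries alone (exact permutation adjusted p = 0.26, 0.25 and 0.13) and when 1 library was left out (up to 0.11, 0.097 and 0.082), and that of Rpp40 with ranks (0.059).

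After KCl, Pop4 was higher (0.55 SD units, exact permutation adjusted p = 0.008), and Rpp30 (-0.54, adjusted p = 0.0035) and Rpp25l (-1.26, adjusted p = 0.0071) were lower. These are 3 of 10, where 21.1% of all genes passed (6.07% as higher). Pop5 differed by -0.03 (adjusted p = 0.91). The difference for Rpp25 was -0.10 SD units, a description.

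Of 11 other genes of tRNA processing, those of mitochondrial RNase P included, 5 were higher and 2 lower in striatum, where 28.3% and 26.9% of all genes were. Among them Elac2, which trims the 3′ trailer of precursor tRNAs, was higher by 1.61 SD units. Clp1, an RNA kinase, was lower, with a difference of -1.27 SD units. The calls of Clp1 and Trmt10c were lost in vehicle libraries alone (exact permutation adjusted p = 0.19 and 0.29), and those of Clp1 and Elac1 when 1 library was left out (up to 0.050 and 0.097). After KCl 1 was higher, Trmt10c of mitochondrial RNase P (1.67), and 3 were lower, among them Elac1 (-1.63) and Tsen54 (-1.21), where 6.07% of all genes were higher and 15% lower.

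**Figure D5:**
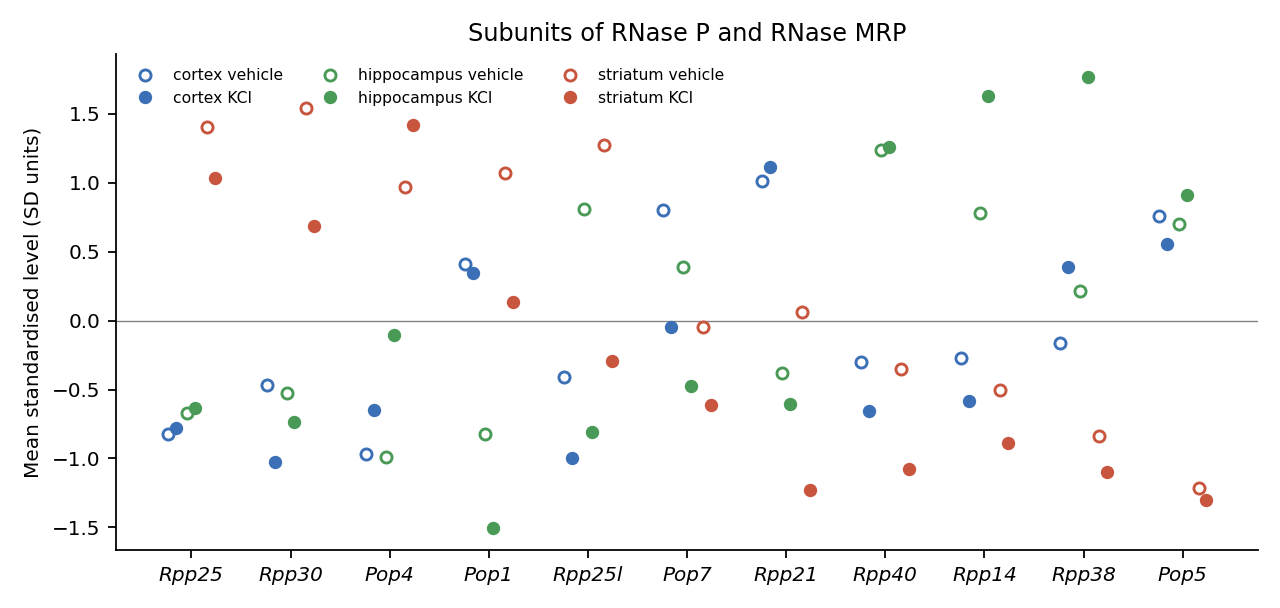
Mean standardised level of each RNase P and RNase MRP subunit in the 6 groups, in SD units, open points vehicle and filled points KCl. Striatal points stand highest for Rpp25, Rpp30 and Pop4 and lowest for Rpp38 and Pop5.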

How the data were processed

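Total RNA-seq libraries (19) were analysed from the deposited table of TAPEs and nearby genes. The authors trimmed reads with Trim Galore (0.4.5), aligned them to Rn6 with STAR, processed alignments with SAMtools (1.9) and counted reads of both strands over TAPEs, duplicates kept. The deposited values, named CPKM by the authors, are RPKM (reads per kilobase and per 1000000 reads), not logged. The deposited score columns are Pearson correlations of TAPE and gene CPKM over all libraries and within each region. Deposited distances and positions were used as given. No column of sample values was left unmapped.

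Whole reads were recovered from the steps of CPKM, and 100% of values were whole within 0.02 reads. Totals ran from 46411271 to 72521194 reads, with 47431 to 83272 in TAPEs, so most TAPEs rest on few reads. Log2(CPKM + 0.05) of TAPEs with a mean of at least 0.05 CPKM was fitted with limma (3.58.1, R 4.3.3) on all 1870, with Benjamini-Hochberg adjustment at 0.05. Fold changes on that scale understate those of low TAPEs. KCl was tested within each region, and regions were compared over both treatments. Gene levels were solved from the deposited correlations for 16502 of 17715 genes (93.2%), and compared by an exact two-sided permutation test of the mean difference, within treatment for striatum and within region for KCl. Python 3.11.15, numpy 2.4.6, pandas 2.3.3 and scipy 1.17.1 were used, and the fits were tested on simulated data.

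Cortex vehicle replicate 3 was grouped by its title, since its tissue label says striatum, and its profile correlated best with cortex (r = 0.833, against 0.510 with striatum). Same-numbered libraries of cortex and hippocampus did not deviate together (r from -0.042 to 0.015). The sources do not state whether replicates are separate dissections, so p-values measure the spread between these samples. Named were the striatal TAPE, the 3 nearest TAPEs on each side, those with a call, the paired genes highest, lowest and nearest, and the 8 most similar genes. Members and lists were chosen with earlier results of these data known. Other pseudocounts, filters, scalings, limma voom, ranks, a replicate block and leaving out each library were tried.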

Additional observations from a re-analysis of the deposited data

Results flagged for a closer look

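In 9 of 76 groups of 4 to 7 libraries, the highest or lowest library lay far from the others. The rule flags about 1 in 20 groups of independent, normally distributed values. Some groups here are mostly 0, and striatum vehicle libraries recur among all striatal libraries, so that rate does not apply. At chr8:61510498-61512502, striatum vehicle replicate 6 measured 0.1205 CPKM, with the next striatal library at 0.06029, which set it apart among the 4 vehicle and among the 7 striatal libraries. At the downstream neighbour of Rpp25, striatum vehicle replicate 8 measured 0.1007 CPKM, with the next at 0.01466 among vehicle and 0.01535 among all striatal libraries. At chr8:62432758-62435568, cortex vehicle replicate 1 (0.01141 CPKM) and hippocampus vehicle replicate 2 (0.02451 CPKM) were the only libraries above 0. At chr8:62654457-62655623 these were cortex vehicle replicate 2 (0.02363 CPKM) and hippocampus vehicle replicate 3 (0.03105 CPKM). Rpp21 in hippocampus vehicle replicate 1 had a standardised level of -0.02465, with the next hippocampal library at -0.446.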

How the results depend on the processing

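The striatal TAPE kept its direction under every alternative run. Its striatum minus cortex difference was 2.07 to 3.18, its striatum minus hippocampus difference 2.08 to 3.29 and its KCl change in striatum -0.86 to -0.60 (log2). That change passed limma's threshold as first fitted, with voom and with a pseudocount of 0.2, and did not with libraries centred, a pseudocount of 0.01, no filter or any of its 7 libraries left out. The TAPE was chosen by this fall, so a pass gives no support and the change remains a description. Counts of TAPEs that passed for KCl were unstable. They were 6 in cortex (0 without a filter, 10 with libraries centred, 3 to 5 with 1 library left out), 1 in hippocampus (0, 4, and 0 to 0) and 23 in striatum (2 without a filter, 0 to 8 with 1 library left out, and 0 without striatum KCl replicate 7). Without a filter 2026 TAPEs differed by region, against 912. The cause was not tested.

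A fit with the replicate block gave 3 TAPEs for KCl in cortex and 0 in hippocampus. It changed no call of the TAPEs named here. Same-numbered libraries did not deviate together, but most values rest on few reads, so whether the numbers pair the libraries cannot be decided.

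Directions that reversed belong to differences that did not pass. At chr8:61510498-61512502 the KCl change in cortex was 0.021 with a pseudocount of 0.01, 0.048 centred and 0.042 with voom, and -0.45 to 0.25 with 1 library left out. Its striatum minus hippocampus difference was 0.23, 0.46 with voom, and -0.28 to 0.14. At chr8:61748144-61751013 the last difference was -0.10 centred, -0.16 in vehicle libraries, and -0.089 to 0.15, the KCl change in cortex -0.13 to 0.22 and in striatum -0.12 to 0.60. Scamp5 differed by 0.042 mean ranks, and NEWGENE_1306267 by -0.57 to 0.10 SD units with 1 library left out. Depth limits all TAPEs of Rpp25, and the pair in the gap chiefly in cortex and hippocampus.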
